A study of Mus musculus with 2 samples.

Results

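The YAP/TAZ-TEAD pathway was followed through 10 of its genes, chosen by name from the 46095 genes of the count table: the coactivators Yap1 and Wwtr1 (the gene of TAZ), the transcription factors Tead1, Tead2, Tead3 and Tead4, and the target genes Lats2, Amotl2, Ankrd1 and Axl. All 10 passed the filter on low counts, which kept 17356 genes. The data are 1 RNA-seq library of C3H10 cells (C3H/10T1/2, a clonal mouse embryonic mesenchymal line that can form adipocytes) that received an antisense oligonucleotide (ASO) against MALAT1, and 1 library of cells that received a negative control ASO. The labels of both give the strain as C57BL/6 and the cells as adipogenic fibroblast precursors. In both groups the ASO was delivered at 100 nM with RNAiMAX, and differentiation was then induced with isobutylmethylxanthine, dexamethasone, troglitazone and insulin, followed by insulin alone, and were collected at day 6. Which of the MALAT1 ASOs was sequenced is not given in the sources used here. The libraries are called control and knockdown below.

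In the Hippo pathway, the kinases STK3 and STK4 activate the kinases LATS1 and LATS2, which phosphorylate YAP and TAZ and keep them out of the nucleus. When this brake is off, YAP and TAZ enter the nucleus and join TEAD proteins, which bind DNA at the MCAT element and turn on genes of growth, matrix and cytoskeleton, some of which (Lats2, Amotl2) feed back on YAP and TAZ. In mesenchymal precursors TAZ is known as a coactivator of RUNX2 and a repressor of PPARγ, so the pathway is known as one that favours bone over fat. RNA counts show how much of each mRNA was present. They do not show where the YAP and TAZ proteins were or whether they were phosphorylated.

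The sequence that TEAD proteins read was looked for in the promoters of these genes, since the pathway's output depends on it. The core of the MCAT element, GGAATG or CATTCC on the other strand, was searched in windows from 250 bases before to 50 bases after each RefSeq gene start (GRCm38.p6). Of the 10 genes, 8 had a promoter entry, and 7 of these 8 held the core in at least 1 window, against 16.6% of the 27025 genes with an entry and 14.7% of the 32851 single windows. In the wider lists used below, which hold some of the same genes, the core was found in 7 of 15 genes of the YAP signature with an entry (46.7%), 3 of 6 of the Hippo kinase core and 5 of 12 upstream regulators (41.7%). Tead2 had an entry without the core, and Tead1 and Tead4 had no entry. A match of these letters is a description of the window and not a measured binding site. The stretches below are shown because they place the letters that TEAD proteins recognise beside the genes whose counts follow, and Ccn1 (Cyr61 in the count table) is added as a widely used YAP/TAZ target from the signature, of whose 15 genes with an entry 8 lacked the core. All are written along the strand of the gene with the core in capitals and the position of its first base counted from the gene start (negative before it, and from the first listed start where a gene has several), and stretches that overlap an exon of the GENCODE M21 annotation were kept to 30 bases. Tead3 held 3 further cores that are not shown, at -123, -114 and 3 from another of its listed starts. The starts used for Lats2 (chr14:57746123) and Amotl2 (chr9:102717804) lie inside these genes as GENCODE M21 places them. Another listed start of Lats2 held no core.
Yap1 promoter, chr9:8004702-8004767, minus strand, core at -141: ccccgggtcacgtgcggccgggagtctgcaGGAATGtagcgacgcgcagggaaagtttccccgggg
Wwtr1 promoter, chr3:57576011-57576076, minus strand, core at -136: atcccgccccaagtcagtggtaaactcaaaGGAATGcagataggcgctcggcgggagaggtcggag
Tead3 promoter, chr17:28350952-28351017, minus strand, core at -182: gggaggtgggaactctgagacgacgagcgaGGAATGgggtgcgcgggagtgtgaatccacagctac
Amotl2 promoter, chr9:102717727-102717756, plus strand, core at -65: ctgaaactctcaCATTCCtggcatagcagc
Lats2 promoter, chr14:57746102-57746131, minus strand, core at 5: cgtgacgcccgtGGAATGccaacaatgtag
Ankrd1 promoter, chr19:36120037-36120066, minus strand, core at -210: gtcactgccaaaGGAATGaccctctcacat
Ankrd1 promoter, chr19:36119950-36119979, minus strand, core at -123: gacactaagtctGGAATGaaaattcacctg
Axl promoter, chr7:25788931-25788983, minus strand, core at -233: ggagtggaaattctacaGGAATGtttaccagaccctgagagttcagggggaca
Ccn1 promoter, chr3:145650053-145650118, minus strand, core at -103: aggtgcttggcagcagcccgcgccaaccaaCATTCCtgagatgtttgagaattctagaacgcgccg

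Counts summed to 58147539 in control and 61653549 in knockdown. The targeted RNA was lower, with Malat1 at 24.7% of its control level (170402 counts in control and 45396 in knockdown). Differences are given as the log2 fold change of knockdown over control after TMM scaling, with a prior count of 0.5 and an exact 95% Clopper-Pearson interval. The interval covers counting error only. With 1 library a group no difference has a replicate check, no p-value is given, and every comparison is between these libraries and not between the conditions. A gene was called where it differed at least 2-fold and its interval did not include 0. As a check of the labelled cells, adipocyte markers summed to 6555 CPM in control (CPM is the count as a share of the scaled library, in parts per 1e6) and 2895 CPM in knockdown, with 9 of the 11 tested markers at least 1.5-fold lower, none higher, and Lep not tested at 1 and 0 counts. Mesenchymal markers summed to 14640 and 16400 CPM, with intervals above 0 for 9 of 10, and Col3a1 the exception at -0.0067. In bulk RNA fewer adipocytes and less adipocyte RNA per cell cannot be told apart. Many of the listed markers of other cells were at or near 0 in both libraries. Ptprc, Adgre1 and Itgam (macrophages), Epcam, Krt5 and Cldn4 (epithelium) and Myod1, Myog and Acta1 (muscle) had 0 counts. For 0 counts the exact interval reaches up to 0.0639 CPM in control and 0.0594 CPM in knockdown. Cdh5 and Kdr (endothelium) had 0 and 1 count each. Low counts were found for Cd68 (172 in control and 119 in knockdown), Cdh1 (48 and 61), Pecam1 (26 and 25), Tek (23 and 19), Emcn (20 and 45) and Csf1r (3 and 13). Emcn and Csf1r were called higher, and Cd68 and Des were at least 1.5-fold lower. The summed levels of these marker lists were 3.03 and 2.13 CPM for macrophages, 0.849 and 0.998 CPM for epithelium, 7.78 and 5.12 CPM for muscle, nearly all Des, and 1.20 and 1.47 CPM for endothelium.

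None of the 10 genes was called, and none differed even 1.5-fold. The background was 2.7% of tested genes called higher and 4.6% called lower in the knockdown library, and 5.09% higher and 8.13% lower at the 1.5-fold line. Among the 8251 genes with a mean of at least 1000 counts, where 8 of the 10 genes lie, 1.43% were at least 1.5-fold higher. Smaller differences were mostly upward. The knockdown library was the higher of the pair for 9 of the 10 genes under TMM, library totals, DESeq2 size factors and upper-quartile scaling alike, and 49.6% of all tested genes were higher under TMM. The median over the 10 genes was 0.12, beside -0.0031 over all tested genes and 0.013 over those with a mean of at least 1000 counts. Intervals lay above 0 for 5 genes (Yap1, Tead2, Tead4, Amotl2 and Axl), below 0 for none, and included 0 for 5 under TMM. The count above 0 was 5 with DESeq2 size factors, 6 with upper-quartile scaling and 8 with library totals, which adds Wwtr1, Tead1 and Lats2. Of all tested genes, 26.7% had intervals above 0 and 26.4% below 0, and among genes with a mean of at least 1000 counts 37.3% lay above 0. Mesenchymal markers, with a median of 0.25, were also higher in the knockdown library, and adipocyte markers, with a median of -1.30, were lower, and their part in the differences of the pathway was not tested.

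**Figure D1:**
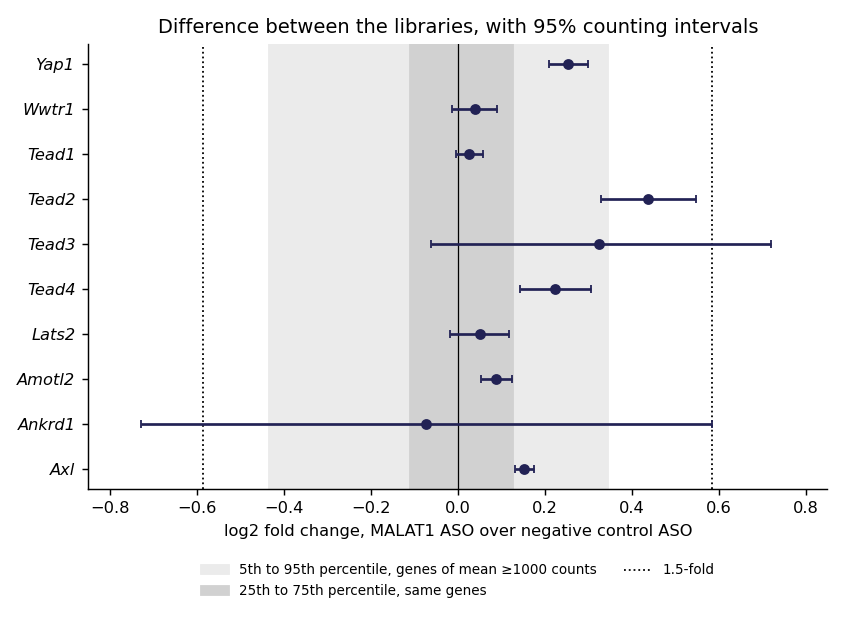
The log2 fold change (knockdown over control) of each of the 10 genes is plotted as a point with its 95% counting interval, over bands for the 5th to 95th (-0.43 to 0.35) and 25th to 75th (-0.11 to 0.13) percentiles of the 8251 genes with a mean of at least 1000 counts. Dotted lines mark 1.5-fold, and no point reaches them; Tead2, at 0.44, is the one point outside the wider band.

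The coactivators differed from each other. Yap1 encodes YAP and lies at chr9:7931999-8004596 (minus strand; GENCODE M21, GRCm38). It had 7093 counts in control and 9104 in knockdown, or 122.9 and 146.5 CPM. The knockdown library was the higher by 1.19-fold, a log2 fold change of 0.25 (0.21 to 0.30), which stood at percentile 90.3 of genes with a mean of at least 1000 counts. Wwtr1, the gene of TAZ at chr3:57455649-57575910 (minus strand), had 5822 and 6438 counts, or 100.9 and 103.6 CPM. These levels lay close together, with a log2 fold change of 0.039 (-0.013 to 0.090) near the middle of the table. The count ratio of Yap1 to Wwtr1, which no scaling can change, went from 1.22 in control to 1.41 in knockdown, a log2 change of 0.22 (0.15 to 0.28). Per kb of exon, TAZ mRNA was the more abundant of the pair in both libraries, at 21.1 and 21.7 CPM per kb against 13.3 and 15.8 CPM per kb for Yap1. In CPM Yap1 was the higher in both, so which of the pair leads rests on the exon lengths used.

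The TEAD genes encode the DNA-binding partners of YAP and TAZ, and their levels were very unequal. Tead1, at chr7:112679318-112906807 (plus strand), had 15632 counts in control and 17143 in knockdown. Its levels, 270.9 and 275.9 CPM, were nearly equal, with a log2 fold change of 0.027 (-0.0048 to 0.058). Tead4, at chr6:128224288-128300823 (minus strand) and best known in muscle and in the early embryo, had 2199 and 2765 counts, or 38.1 and 44.5 CPM. It was higher in the knockdown library by 0.22 (0.14 to 0.31). Tead2, at chr7:45215753-45233644 (plus strand) and known for its expression in embryonic tissue, had 1157 and 1687 counts, or 20.05 and 27.15 CPM. The log2 fold change of Tead2, 0.44 (0.33 to 0.55), was the largest of the 10 genes and stood at percentile 97.2 of genes with a mean of at least 1000 counts. Tead3, at chr17:28331671-28350817 (minus strand), had only 97 and 131 counts. Its log2 fold change of 0.33 had an interval from -0.063 to 0.72, which includes both 0 and the value of Tead2.

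Set beside each other, the TEAD genes other than Tead1 took a larger part in the knockdown library. Per exon length, Tead1 made up 57.05% of the summed TEAD level in control and 52.6% in knockdown, Tead4 30.3% and 32.0%, Tead2 11.97% and 14.7%, and Tead3 0.716% and 0.812%. In raw counts the share of Tead1 went from 81.9% (81.4 to 82.4, Clopper-Pearson) to 78.9% (78.4 to 79.4), and these intervals do not overlap. The count ratio of Tead1 to Tead2 went from 13.5 in control to 10.2 in knockdown, a log2 change of -0.41 (-0.52 to -0.30). Tead1 to Tead4 changed by -0.20 (-0.28 to -0.11) and Tead2 to Tead4 by 0.21 (0.079 to 0.35). The 3 ratios that involve Tead3 had intervals that included 0. The 4 genes are read well apart by sequence: Tead3 and Tead4 transcripts shared 10 stretches of 50 bases with each other, and at most 0.272% of the 50-base stretches of any TEAD gene occurred in transcripts of another gene.

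**Figure D2:**
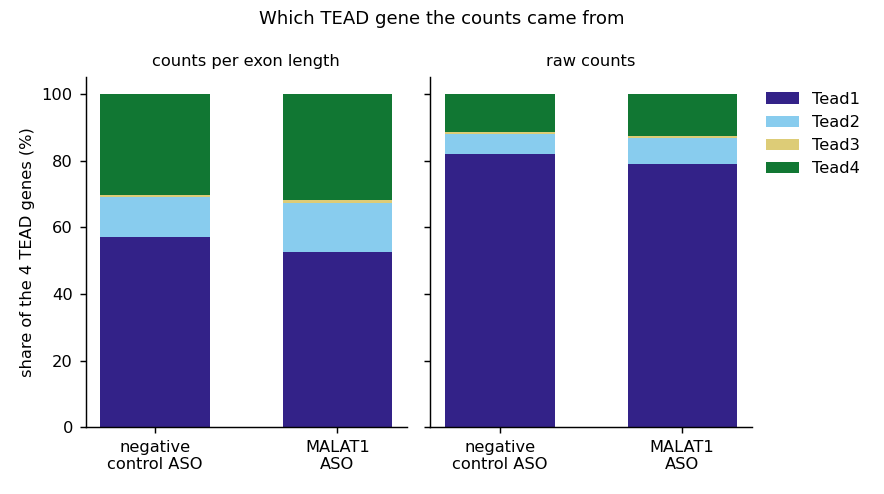
Stacked bars show the share (%) of each TEAD gene in the summed level of the 4 genes in the control and knockdown libraries, from counts per exon length (left) and from raw counts (right). Tead1 is the largest part of every bar and is smaller in knockdown, at 52.6% against 57.05% per length and 78.9% against 81.9% of raw counts.

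The target genes covered the highest and the lowest levels of the set. Axl encodes a receptor tyrosine kinase for GAS6 and lies at chr7:25757273-25788705 (minus strand). It had 31301 counts in control and 37455 in knockdown, or 542.4 and 602.9 CPM. The knockdown library was the higher by 1.11-fold, a log2 fold change of 0.15 (0.13 to 0.17). Amotl2 encodes an angiomotin that holds YAP at cell junctions and in the cytoplasm, and lies at chr9:102716672-102733418 (plus strand). Its 11933 and 13656 counts gave a value of 0.088 (0.053 to 0.12) on the log2 scale, a small excess in knockdown with a counting interval above 0. Lats2, the kinase that phosphorylates YAP and TAZ and is also their target, lies at chr14:57689662-57758388 (minus strand). It had 3351 and 3735 counts, and its log2 fold change of 0.050 (-0.018 to 0.12) included 0. In the annotation 2955 exon bases of Lats2 are shared with Gm49361, a gene on the same strand with no entry of that name among the counted genes. Of the 50-base stretches of Lats2, 41.2% occur in transcripts of that gene. How the counting treated these reads is not known and bears on the level of Lats2. For the other 9 genes this share was at most 1.35% (Yap1). Yap1 also shares 116 exon bases with Gm20416 on the opposite strand, and whether the counting used strand is not given in the sources used here.

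Ankrd1, which encodes a cardiac ankyrin repeat protein and is among the most widely used YAP/TAZ reporter genes, was barely present. It lies at chr19:36111961-36120099 (minus strand) and had 41 counts in control and 42 in knockdown, or 0.711 and 0.676 CPM. The log2 fold change was -0.072 with an interval from -0.73 to 0.59, so differences smaller than about these bounds were not detectable. Its level per kb was the lowest of the set. The order of levels per kb was the same in both libraries: Axl, Amotl2, Wwtr1, Tead1, Yap1, Tead4, Lats2, Tead2, Tead3 and Ankrd1. Neighbours in this order had separate counting intervals except Tead3 and Ankrd1, at 0.2504 and 0.246 CPM per kb in control and 0.314 and 0.234 in knockdown. Axl stood at 107.8 and 119.8 CPM per kb, and Amotl2, the next, at 32.9 and 34.95. The order rests on the exon lengths used, and in CPM Yap1 was above Wwtr1 in both libraries.

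**Figure D3:**
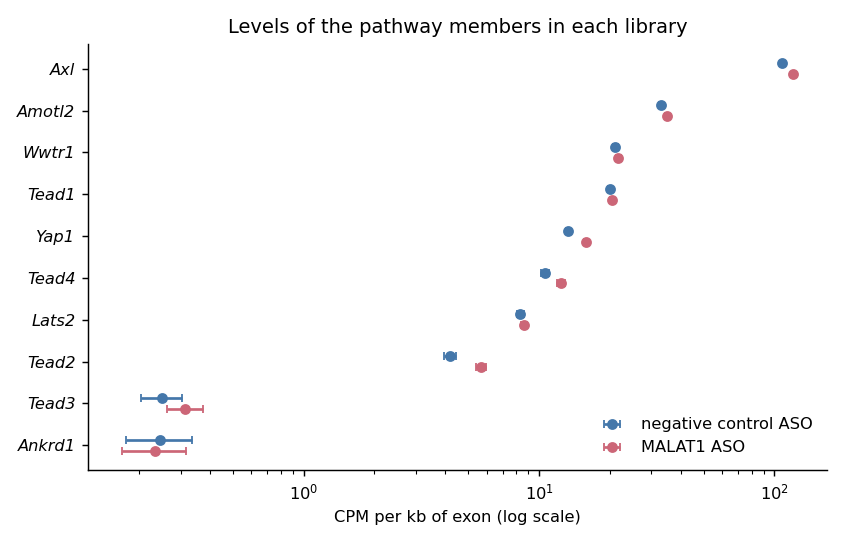
Levels in CPM per kb of exon (log axis) are plotted for the 10 genes in the control (blue) and knockdown (red) libraries, with 95% counting intervals. The genes run from Axl at 107.8 and 119.8 to Ankrd1 at 0.246 and 0.234 CPM per kb, a range far wider than any difference between the libraries. The order of the genes is the same in both, and some neighbours, such as Wwtr1 and Tead1, lie close together.

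Spread between cultures would widen these intervals by an amount that 1 library a group cannot give. With an assumed biological coefficient of variation of 0.1 per library, the half-width of the interval was 0.40 to 0.74 for the 10 genes and Tead2 alone lay off 0, against 16.2% of all tested genes. With 0.2 the half-width was 0.80 to 1.01 and 0 of the 10 lay off 0, against 6.87% of all tested genes. The same limit holds for the wider pathway lists below. Of their 67 tested genes, which include the 10, Stk3, Tead2, Vegfa, Vgll3 and Wwc1 alone lay off 0 with 0.1, and none with 0.2.

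Among a wider set of targets, small differences were again mostly upward. A published YAP signature of 22 genes, written from general knowledge and holding 4 of the genes above, had 16 genes higher and 6 lower in the knockdown library, and 0 past 1.5-fold in either direction. Its median was 0.12, and 0.15 over the 18 genes that are not among the 10. Intervals lay above 0 for 13 genes and below 0 for 4, beside the 26.7% and 26.4% of all tested genes. Among genes with a mean of at least 1000 counts, where 16 of the 22 lie, 53.1% were higher and 37.3% had intervals above 0. Myof, a membrane repair protein of the ferlin family, was the highest, with 29043 counts in control and 40471 in knockdown (0.37, 0.35 to 0.39). Fjx1, a kinase of the Fat and Dachsous system, had 1125 and 1557 counts (0.36, 0.25 to 0.47). The remaining higher genes include Asap1, a regulator of ARF GTPases, at 0.27 and Dock5, an activator of RAC, at 0.27.

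The classic secreted targets did not move together. Ctgf (Ccn2), a matrix-associated growth factor, had 1159 counts in control and 1490 in knockdown, higher by 0.26 (0.14 to 0.37). Cyr61 (Ccn1), its close relative, had 3156 and 3225 counts, which after TMM scaling was lower by a log2 fold change of -0.075 (-0.15 to -0.0041). Library totals, which moved the median of all genes from -0.0031 to 0.019, would take this interval across 0, so its place below 0 rests on the scaling. Also with intervals below 0 under TMM were F3 (tissue factor) at -0.15, Ccdc80, a matrix protein, at -0.21 and Gadd45a, a stress-response gene, at -0.28. Nt5e (CD73) had only 30 and 33 counts and Igfbp3 150 and 137, and the intervals of both included 0. The study's discussion recalls earlier work in which MALAT1 interacted with TEAD proteins and held back transcription of Itgb4 and Vegfa. In the direction of that work, less MALAT1 would go with higher levels of both. Whether such a link held in these cells was not tested. Itgb4, an integrin subunit, had 307 and 362 counts (0.13, -0.092 to 0.36). Vegfa, the endothelial growth factor, had 13084 and 10012 counts and was lower in the knockdown library by a log2 fold change of -0.49 (-0.53 to -0.45), the lowest value of the 67 pathway genes tested and short of 1.5-fold.

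**Figure D4:**
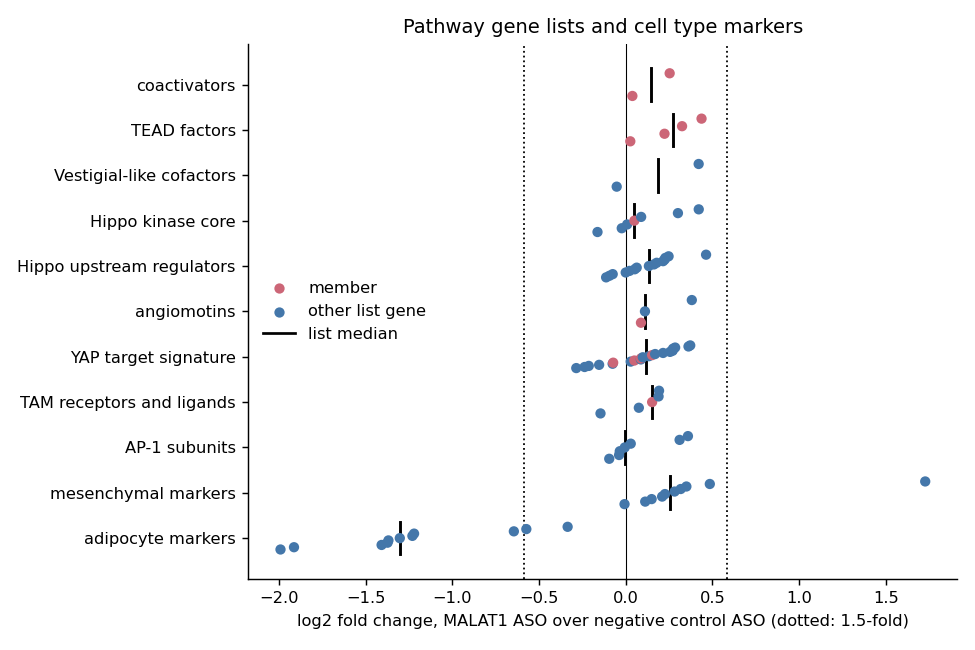
The log2 fold change (knockdown over control) of each tested gene is plotted by list, with the 10 genes in red, other genes in blue and the list median as a black bar. No gene of the plotted pathway lists reaches the dotted 1.5-fold lines; medians of the plotted pathway lists run from -0.0055 (AP-1 subunits) to 0.27 (TEAD factors), and the mesenchymal and adipocyte markers sit at 0.25 and -1.30.

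Upstream of YAP and TAZ, the regulators also differed by less than 1.5-fold, and close relatives differed from each other. In the kinase core of 7 genes, 3 had intervals above 0, 1 below and 3 including 0. Stk3 (MST2) had 2594 counts in control and 3740 in knockdown, higher by 0.42 (0.35 to 0.49), while Stk4 (MST1), the other kinase of the pair, had 3151 and 3031 counts and was lower (-0.16, -0.24 to -0.090). Stk4 was the more abundant in control and Stk3 in knockdown, with a ratio of Stk3 to Stk4 per exon length of 0.789 and 1.18. Sav1, their scaffold, at -0.023 and Lats1 at 0.0082 had intervals that included 0. The LATS cofactors were Mob1a at 0.089 (0.055 to 0.12) and Mob1b at 0.30 (0.19 to 0.41). The angiomotins were all higher, led by Amot with 6082 and 8529 counts (0.38, 0.33 to 0.43), against 0.11 for Amotl1 and 0.088 for Amotl2. Of 15 further upstream regulators, 9 had intervals above 0 and 1 below. For these lists, as for the 10 genes, the shares over all tested genes were 26.7% above 0 and 26.4% below, and 37.3% above 0 among genes with a mean of at least 1000 counts, where all 7 kinase core genes and 13 of the 15 regulators lie. Wwc1 (KIBRA), an activator of LATS, had the highest value of the pathway at 0.46 (0.30 to 0.63) on 499 and 741 counts, and the protocadherins Fat1 and Fat4 stood at 0.18 and 0.16. Nf2 (merlin), which recruits LATS to the membrane, was the regulator with an interval below 0, at -0.094 (-0.14 to -0.050). Wtip at -0.11 and Dchs1 at -0.075 were also lower, with intervals that included 0.

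Cofactors that compete with YAP and TAZ for TEAD proteins also differed from each other. Vgll3 had 2658 counts in control and 3831 in knockdown, higher by 0.42 (0.35 to 0.49). Vgll4, known as a repressor of TEAD activity, had 4452 and 4624 counts (-0.052, -0.11 to 0.0078). Vgll1 and Vgll2 had 0 counts in both libraries. The ratio of Vgll3 to Vgll4 counts went from 0.597 to 0.829, a log2 change of 0.47 (0.38 to 0.57). Of the 7 ratios between the coactivators or between TEAD genes, 4 had intervals off 0, and of 6 further pairs, chosen after their values were seen, 4 did. The ratios among TEAD genes share genes and are not separate results. No share over other pairs of genes was computed. Of single tested genes, 26.7% had intervals above 0 and 26.4% below 0.

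**Figure D5:**
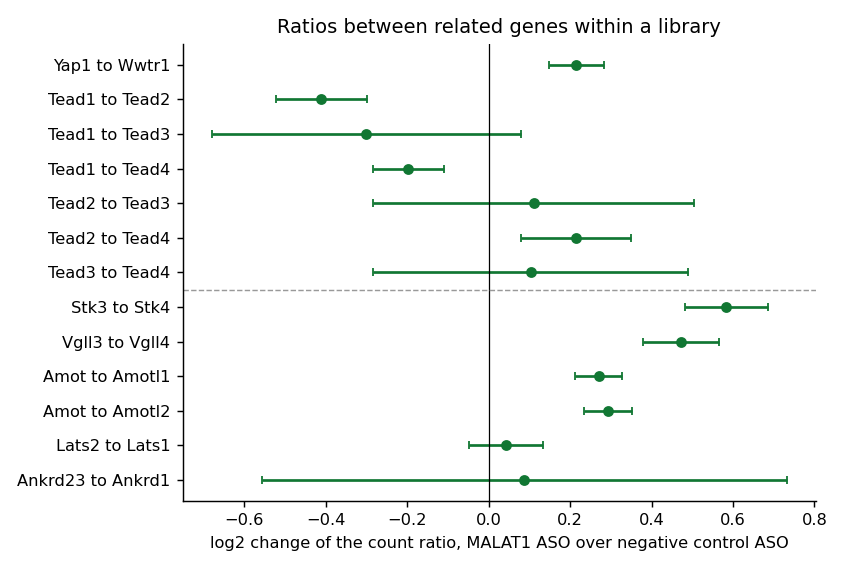
The log2 change of the count ratio of related genes (knockdown over control) is plotted with 95% counting intervals, with the 7 pairs among the coactivators and TEAD genes above the dashed line and 6 further pairs below it. Stk3 to Stk4, at 0.58, and Vgll3 to Vgll4, at 0.47, changed most among the pairs shown, and the pairs with Tead3 or Ankrd1 have the widest intervals.

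Around Axl, its ligand and sister receptors differed little. Gas6, the ligand, had 19357 counts in control and 21965 in knockdown (0.076, 0.048 to 0.10), and Pros1, protein S, a ligand of the related receptors, had 4500 and 5536 (0.19, 0.14 to 0.25). Tyro3 was higher by 0.19 (0.026 to 0.35) on 557 and 684 counts, while Mertk was lower (-0.15, -0.19 to -0.096) on 6714 and 6536. In the family of Ankrd1, Ankrd23 had 499 and 543 counts (0.015, -0.16 to 0.19) and Ankrd2 only 10 and 8.

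TAZ is known to act on the activity of the lineage factors RUNX2 and PPARγ, and the mRNAs of these factors differed in opposite directions. Runx2, the osteoblast factor, had 1909 counts in control and 2354 in knockdown and was higher by 0.20 (0.11 to 0.28). Pparg, the adipocyte factor, was at -0.57 (-0.61 to -0.53), just short of 1.5-fold. It is also 1 of the adipocyte markers, whose median was -1.30. The mRNA levels do not show the activity of either factor, and a part of TAZ in these differences was not tested.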

How the data were processed

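Total RNA was depleted of rRNA and made into directional libraries. HISAT2 and GRCm38 are named in the submitters' processing notes, and the counting tool, the annotation and the handling of strand, duplicate and multiply matching reads are not given in the sources used here. The authors deposited whole-number read counts per gene symbol, without normalization, for 1 library of each group. Columns were matched to samples by their titles.

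Library sizes were scaled by TMM factors (edgeR 4.0.16, R 4.3.3), 0.992 for control and 1.01 for knockdown, over the 17356 genes with at least 10 counts in the sum of both libraries. The quasi-likelihood test of edgeR and the test of DESeq2 (1.42.0) need replicates and were not used. Log2 fold changes used a prior count of 0.5, and 95% Clopper-Pearson intervals came from scipy 1.17.1 (Python 3.11.15). Intervals of count ratios used the normal approximation on the log scale. Reads without molecular identifiers are not independent molecules. The intervals cover the counting error of reads taken as independent, and can be too narrow for the molecules sequenced. Calls needed a 2-fold, or as a second line a 1.5-fold, difference and an interval off 0. The procedure was tested on simulated data with counting error only and 200 genes changed 3-fold, where all 200 and 114 unchanged genes were called. That test cannot speak to spread between cultures or to differences as small as those given here. Exon lengths are the union of GENCODE M21 exons.

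The 10 genes were taken by name, and they and the lists were chosen with earlier results of these data known. The rule for named genes was the 10 genes in full, any gene of the pathway and cell marker lists, and Malat1. Lists were written from general knowledge. The paper's other assays were not analysed here.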

Additional observations from a re-analysis of the deposited data

How the results depend on the processing

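With raw counts in place of counts per exon length, the TEAD shares became 81.9%, 6.06%, 0.508% and 11.5% for Tead1, Tead2, Tead3 and Tead4 in control and 78.9%, 7.77%, 0.603% and 12.7% in knockdown, so the size of each share depends on the length used, while its direction between the libraries did not change. The counts of called genes and of genes past 1.5-fold, for the 10 genes and for the YAP signature, were 0 under library totals, DESeq2 size factors and upper-quartile factors. They were also 0 with a prior count of 2, no filter, and at least 10 counts in each library. These settings moved values little: Tead2, the largest of the 10 genes, went from 0.44 to 0.46 under library totals, still short of 1.5-fold. Preset coefficients of variation of 0.1 and 0.2 only widen intervals and leave the fold unchanged, so they could not raise a count of 0. No scaling changed the direction of any of the 10 genes. Intervals above 0 went from 5 genes under TMM to 6 under upper-quartile factors and 8 under library totals, which moved the median of all genes from -0.0031 to 0.019, so for Wwtr1, Tead1 and Lats2 the call of a difference beyond counting error rests on the scaling. With 1 library a group no library can be left out, and no spread between cultures can be estimated. Depth limits Ankrd1 and Tead3.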

Other observations

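The AP-1 subunits, which are known to bind beside TEAD proteins at enhancers, were read as a further group of 7 genes. Intervals lay above 0 for 1, below 0 for 1 and included 0 for 5, with a median of -0.0055. Of all tested genes, 26.7% had intervals above 0 and 26.4% below 0. Among genes with a mean of at least 1000 counts, where 5 of the 7 lie, 37.3% lay above 0. Fosl1 (FRA1) had 3482 counts in control and 4808 in knockdown, higher by 0.36 (0.30 to 0.42). Jund had 7278 and 7337 counts (-0.095, -0.14 to -0.048). Jun, the most abundant in CPM, had 8075 and 8871 counts (0.029, -0.015 to 0.073).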
